A study of Mus musculus with 6 samples.

Results

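Heat shock factors are the transcription factors that switch on chaperone genes when proteins unfold, and BAG proteins are partners of the HSP70 chaperones. The 10 genes described here are the heat shock factors Hsf1, Hsf2 and Hsf4, the heat shock factor binding protein Hsbp1, and the BAG genes Bag1, Bag2, Bag3, Bag4, Bag5 and Bag6. They were chosen by name, each matched 1 row of a table of 54385 genes, and all 10 passed the filter on low counts that left 14332 genes for testing. Polyadenylated RNA of brown adipose tissue was sequenced from C57BL/6N mice aged 20 weeks and kept on chow. The tested genotype was ADCY3∆AT (3 libraries), which lacks Adcy3-AT, a truncated form of adenylyl cyclase 3, and it was set against wild type, labelled wt/wt (3 libraries). The sources used here do not give how the deletion was made, in which cells it acts, or whether each library is 1 mouse. The p-values therefore measure the spread between libraries, part of which could be technical. Each sample's label gives the tissue as interscapular, whereas the series' design text says inguinal.

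In a resting cell HSF1 is held as a monomer by chaperones. When unfolded proteins draw the chaperones away, HSF1 forms trimers, binds heat shock elements in DNA and raises transcription of chaperone genes, Bag3 among them. A typical BAG protein carries a BAG domain that binds the ATPase part of HSP70 and helps it release ADP and its client. The rest of such a protein sets where the client goes, for example to the proteasome (BAG1) or to autophagy (BAG3). Brown fat makes heat in its mitochondria, under the control of cyclic AMP, which adenylyl cyclases produce.

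Library totals ran from 14799779 to 19592156 estimated counts in ADCY3∆AT and from 13758492 to 17489589 in wild type. The 9 listed brown adipocyte markers, Ucp1 and Adipoq among them, were detected in all groups and summed to 15991 to 16918 CPM (counts scaled to library size with TMM factors) in ADCY3∆AT libraries and 17817 to 18197 CPM in wild-type libraries, ranges that did not overlap, with 0 of 9 called. The 13 skeletal muscle markers summed to 1.47 to 3.14 CPM in ADCY3∆AT libraries and 24.9 to 728 CPM in wild-type libraries, with 7 of 11 tested members called lower. Pvalb, a tested member that was not called (edgeR adjusted p = 0.0827), was at 0 in each ADCY3∆AT library. Summed markers of mural and smooth muscle cells were 549 to 586 CPM in ADCY3∆AT libraries and 437 to 537 CPM in wild-type libraries, and those of Schwann cells were 87.7 to 147 CPM in ADCY3∆AT libraries and 82.3 to 90.0 CPM in wild-type libraries, with 0 called in either list. The part of these markers in the results was not tested. The ranges of macrophage, lymphocyte, endothelial, fibroblast and white adipocyte markers overlapped between genotypes, and of these lists 1 gene was called. That gene, the white adipocyte marker Lep (leptin), was lower, at 7.49, 4.98 and 11.4 CPM in ADCY3∆AT and 31.7, 19.6 and 62.5 CPM in wild type (log2 fold change -2.24, edgeR adjusted p = 0.0312). Its call ended without wild-type replicate 1 or 3 or ADCY3∆AT replicate 1 or 2, with limma-voom and with robust quasi-likelihood (adjusted p from 0.0576 to 0.114). Of the same list, Nnat went the other way, with each ADCY3∆AT library above each wild-type library (log2 fold change 0.97, edgeR adjusted p = 0.112). Agt (0.29) was also positive, Retn (-0.31) and Hoxc8 (-0.85) were negative, and none of these was called. In bulk tissue, fewer cells of a type and less RNA per cell cannot be told apart.

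Of the 10 genes, Bag3 rose in ADCY3∆AT and the other 9 were not called. A gene was called where the Benjamini-Hochberg adjusted p of edgeR's quasi-likelihood test over all tested genes was under 0.05, and log2 fold changes are ADCY3∆AT minus wild type. That is 1 of 10 called higher, beside 2.63% of all tested genes, and 0 of 10 called lower, beside 1.67%. At an unadjusted p under 0.05 there were 2 of 10 (Bag3 and Hsf1), beside 22.6% of tested genes, and both lay on the higher side. The same 2 genes had an adjusted p under 0.10, beside 9.59% of tested genes. The 10 genes were chosen with earlier results of these data known, so these counts are not independent evidence of an excess. The median log2 fold change of the 10 genes was 0.09, beside -0.0067 over all tested genes. DESeq2 and limma-voom likewise called 1 higher and 0 lower.

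**Figure D1:**
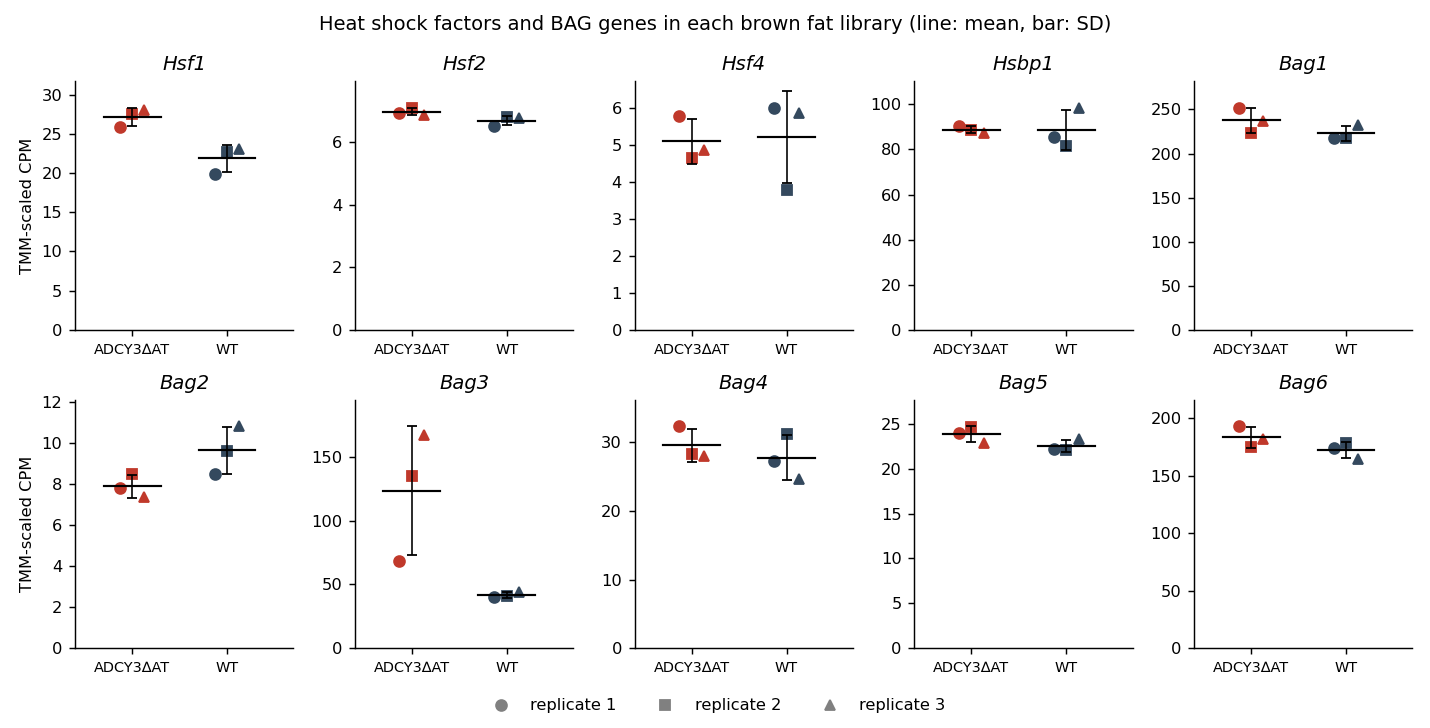
TMM-scaled CPM of each of the 10 genes (vertical axes, from 0) in the 3 ADCY3∆AT libraries (red, left) and the 3 wild-type libraries (dark, right), with symbols for the replicate, a line at the mean and a bar of 1 SD. Bag3 spans 68.4 to 167 CPM in ADCY3∆AT and 39.8 to 44.0 CPM in wild type.

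Among the heat shock factors, Hsf1 showed the largest difference. Hsf1 (ENSMUSG00000022556, chromosome 15 from 76477422 to 76501913, plus strand, GRCm38) had 25.9, 27.6 and 28.1 CPM in the ADCY3∆AT libraries and 19.8, 22.7 and 23.1 CPM in the wild-type libraries. Each ADCY3∆AT library lay above each wild-type library, a separation shown by 3 of the 10 genes (Hsf1, Hsf2 and Bag3) and by 15.1% of all tested genes. The opposite separation was shown by 0 of the 10 and by 13.9% of tested genes, which makes 29.0% in either direction. On the log2 scale the difference was 0.31 (SE 0.09, 95% interval 0.11 to 0.52, adjusted p = 0.0859 by edgeR), a 1.24-fold difference that was not called. The two-sided exact permutation test, on log2(CPM + 0.5), gave p = 0.1, the smallest that 3 libraries against 3 allow. Over 16 alternative fits, the log2 fold change stayed between 0.25 and 0.36 and Hsf1 was called in 0 of them, with adjusted p from 0.0512 to 0.248.

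Hsf2, whose protein can form mixed trimers with HSF1, had 6.94, 7.11 and 6.88 CPM in ADCY3∆AT and 6.53, 6.80 and 6.76 CPM in wild type. Its libraries did not overlap either, yet the gap was narrow. The log2 fold change was 0.06 (95% interval -0.22 to 0.33, edgeR adjusted p = 0.822). Hsf2 (ENSMUSG00000019878) lies on chromosome 10 from 57486385 to 57513135, plus strand.

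Hsf4, known for its part in the lens, was the most scattered of the factors relative to its level in wild type. It had 5.78, 4.65 and 4.86 CPM in ADCY3∆AT and 6.01, 3.77 and 5.86 CPM in wild type, which overlap, from only 51 to 105 estimated counts a library. Its log2 fold change of -0.04 (95% interval -0.52 to 0.44, edgeR adjusted p = 0.936) turned to 0.07 with offsets for GC content and length. On the fold scale the interval runs from 0.699 to 1.36, the widest of the 9 genes that were not called. Hsf4 (ENSMUSG00000033249) lies on chromosome 8 from 105269801 to 105275845, plus strand.

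Hsbp1, whose product binds the trimerization region of HSF1 and dampens it, was the gene with the smallest difference. It had 90.3, 88.7 and 87.2 CPM in ADCY3∆AT and 85.5, 81.6 and 98.5 CPM in wild type, where the ADCY3∆AT values lie inside the wild-type range. On the log2 scale it was 0.0023 (SE 0.08, 95% interval -0.19 to 0.19, adjusted p = 0.992 by edgeR), which turned to -0.04 with upper-quartile factors. Hsbp1 (ENSMUSG00000031839) lies on chromosome 8 from 119344488 to 119348922, plus strand. Of 5 further relatives (Hsf3, Hsf5, Hsfy2, Hsf2bp and Hsbp1l1), 0 passed the filter. The highest of them, Hsf3, averaged 0.161 ± 0.166 CPM in ADCY3∆AT and 0.212 ± 0.163 CPM in wild type (SD, n = 3 each), about the level of the 3 counts that a count of 0 allows (0.152 to 0.222 CPM).

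Bag3, the stress-induced BAG protein that passes HSP70 clients to autophagy together with the small heat shock protein HSPB8, was the gene that rose. Bag3 (ENSMUSG00000030847, chromosome 7 from 128523616 to 128546981, plus strand, 1 annotated transcript) had 68.4, 134.6 and 167 CPM in ADCY3∆AT replicates 1, 2 and 3 and 39.8, 40.9 and 44.0 CPM in wild-type replicates 1, 2 and 3. The groups did not overlap. ADCY3∆AT replicate 1 was the lowest of its genotype, and the highest ADCY3∆AT library held 2.45 times the lowest, against 1.11 times in wild type. The mean was 123 ± 50.4 CPM in ADCY3∆AT and 41.6 ± 2.17 CPM in wild type (SD, n = 3 each), a 2.97-fold difference.

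The log2 fold change of Bag3 was 1.57 (SE 0.28, 95% interval 0.94 to 2.20, adjusted p = 0.0231 by edgeR). Its exact permutation test gave p = 0.1, again the smallest possible. The call ended without wild-type replicate 1 (adjusted p = 0.0990), 2 (0.0687) or 3 (0.0708), without ADCY3∆AT replicate 2 (0.0761), and with robust quasi-likelihood (0.0866). Over all 16 alternatives the log2 fold change ran from 1.29 to 1.87, with adjusted p up to 0.0990. The smallest adjusted p, 6.3e-57, came from edgeR with no filter on low counts. That fit called 1951 genes, against 616 with the filter, and its p-values are not read here as stronger evidence. DESeq2 gave an adjusted p of 0.000979. Wild-type replicate 3 also had the highest sum of skeletal muscle markers, 728 CPM, and without it the log2 fold change of Bag3 was 1.61; the part of muscle RNA in the Bag3 difference was not tested.

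A row inside an intron of Bag3 on the same strand, the provisional transcript 2610306O10Rik, shares no exon base with it. It had 0.716, 1.33 and 1.11 CPM in ADCY3∆AT and 0.261, 0.443 and 0.282 CPM in wild type. These low values did not overlap between genotypes (log2 fold change 1.67, SE 0.41, edgeR adjusted p = 0.0597), and the row was not called. It is named because it overlaps Bag3.

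The heat shock element is a run of GAA units in alternating directions with 2 bases between them. It was searched in RefSeq promoter windows (GRCm38.p6, 250 bases before a start and 50 from it on), which matched 7 of the 10 genes, with 8 windows. Hsf1, Hsf4 and Bag4 had no window and were not searched. The 3-unit form (GAA, TTC and GAA, or TTC, GAA and TTC, with any 2 bases between units and no mismatch, which covers both strands) was found in 0 of these 8 windows, in 5 of 32 windows of a list of 30 heat shock response targets, genes known to be induced by heat shock factors (25 of them had a window), and in 0.603% of all 32851 windows. The 2-unit form (GAA and TTC, or TTC and GAA, with the same spacing), which every 3-unit match also contains, was in 1 of the 8 windows, that of Bag3, in 12 of the 32 and in 15.1% of all windows. The 5 windows cover only 3 separate places, since 2 overlapping windows of Hsph1 share a match, as do the facing windows of Hspd1 and Hspe1. A match is a description of letters and not a measured site. The 2-unit match of Bag3 ends on the last base of its window. The search therefore could not show whether a further unit follows it. The 250 bases before the RefSeq start of Bag3, the gene that rose, are shown at chr7:128523333-128523582, plus strand, with each GAA or TTC unit in capitals, of which there were 3 GAA and 0 TTC.
Bag3: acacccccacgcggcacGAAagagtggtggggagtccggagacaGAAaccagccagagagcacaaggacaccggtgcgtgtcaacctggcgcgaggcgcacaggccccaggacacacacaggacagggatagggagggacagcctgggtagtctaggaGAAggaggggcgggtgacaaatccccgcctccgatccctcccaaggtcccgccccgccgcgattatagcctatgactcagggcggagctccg

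The 2-unit match of Bag3 is printed with 3-unit matches of 3 listed targets. The search itself fixed the 2 bases between units, so their equal spacing is no finding. A 2-unit match like that of Bag3 was in 15.1% of all windows. Each stretch has 30 bases, 5′ to 3′ on the strand of its gene, with the matched letters in capitals. The Bag3 match, at chr7:128523603-128523632 on the plus strand, starts at base 43 counted from the RefSeq start as base 1. Its window stops where the match ends, so the bases after it were not searched. That of Hsph1, at chr5:149636287-149636316 on the minus strand, starts at base 37, and that of Chordc1, at chr9:18292260-18292289 on the plus strand, starts 4 bases before the start. That of Hspe1, at chr1:55088053-55088082 on the plus strand, starts 89 bases before it.
Bag3: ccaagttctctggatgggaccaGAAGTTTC
Hsph1: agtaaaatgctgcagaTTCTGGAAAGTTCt
Chordc1: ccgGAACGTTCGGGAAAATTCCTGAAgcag
Hspe1: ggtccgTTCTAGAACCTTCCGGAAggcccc
Of these 4 genes, Hspe1, a mitochondrial chaperonin, was not called (213 ± 25.1 CPM in ADCY3∆AT and 158 ± 17.7 CPM in wild type, edgeR adjusted p = 0.0687). Chordc1, an HSP90 cochaperone, rose (59.3, 86.1 and 98.9 CPM in ADCY3∆AT and 29.1, 26.1 and 28.5 CPM in wild type, edgeR adjusted p = 0.00453), a call that no alternative ended. Both were named after the motif search because of their matches. Hspe1 was called by DESeq2 (0.0102), with GC and length offsets (0.0350) and without ADCY3∆AT replicate 1 (0.0353). It was also called with no filter (2.6e-05), a fit that called 1951 genes, against 616 with the filter.

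**Figure D2:**
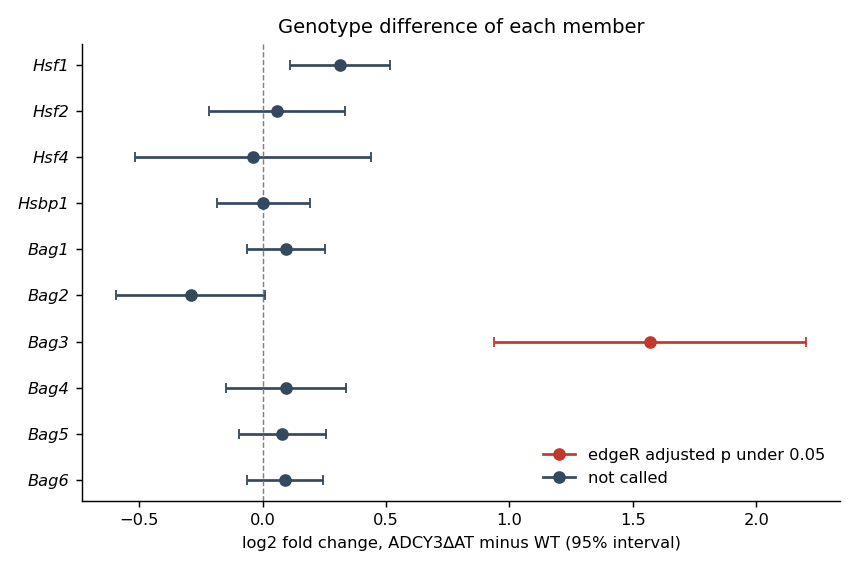
Log2 fold change of each gene, ADCY3∆AT minus wild type (horizontal axis), with its 95% interval from the edgeR fit of 3 libraries against 3. Bag3 (red) is called at 1.57, while the interval of Hsf1 starts at 0.11 and those of the other 8 genes include 0.

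Bag1 and Bag6, the BAG genes with the most CPM, differed little. Bag1, which links HSP70 to the proteasome and binds BCL2, had 252, 224 and 237 CPM in ADCY3∆AT and 218, 218 and 232 CPM in wild type. Its ranges overlapped, with a log2 fold change of 0.09 (95% interval -0.06 to 0.25, edgeR adjusted p = 0.469). With offsets for GC content and length, Bag1 differed by 0.19 on the log2 scale (edgeR adjusted p = 0.147), which was not called. Bag6, which guards tail-anchored membrane proteins and faulty secretory proteins in the cytosol, had 193, 175 and 182 CPM in ADCY3∆AT and 174, 179 and 165 CPM in wild type. The log2 fold change of Bag6 was 0.09 (95% interval -0.06 to 0.24, edgeR adjusted p = 0.473). Without these offsets, the upper ends of the intervals are 1.19-fold for Bag1 and 1.18-fold for Bag6. Bag1 (ENSMUSG00000028416) lies on chromosome 4 from 40936398 to 40948294, minus strand, and Bag6 (ENSMUSG00000024392) on chromosome 17 from 35135178 to 35147322, plus strand.

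Bag5, which has several BAG domains in a row and can inhibit Parkin, had 23.9, 24.6 and 22.9 CPM in ADCY3∆AT and 22.1, 22.1 and 23.3 CPM in wild type. Its log2 fold change was 0.08 (95% interval -0.09 to 0.26, edgeR adjusted p = 0.577). Bag4, also called silencer of death domains because it binds the TNF receptor TNFR1, had 32.4, 28.4 and 28.1 CPM in ADCY3∆AT and 27.3, 31.3 and 24.7 CPM in wild type. Its log2 fold change was 0.10 (95% interval -0.15 to 0.34, edgeR adjusted p = 0.642). For both genes the ranges overlapped and the difference was not called. A noncoding RNA on the other strand, Gm17484, covers 14.8% of the exon bases of Bag4. It reached at most 1.33 CPM in ADCY3∆AT and 1.96 CPM in wild type, so its reads, which cannot be told apart without strand, are few beside those of Bag4. Bag5 (ENSMUSG00000049792) lies on chromosome 12 from 111709488 to 111713257 and Bag4 (ENSMUSG00000037316) on chromosome 8 from 25764538 to 25785287, both on the minus strand.

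Bag2, which inhibits the HSP70-associated ubiquitin ligase CHIP, was the BAG gene with a negative difference. It had 7.82, 8.50 and 7.39 CPM in ADCY3∆AT and 8.49, 9.61 and 10.8 CPM in wild type, touching at ADCY3∆AT replicate 2 and wild-type replicate 1. On the log2 scale Bag2 differed by -0.29 (SE 0.13, 95% interval -0.59 to 0.01, adjusted p = 0.238 by edgeR, exact permutation p = 0.2), which was not called. The sign was negative in all 16 alternatives, with values from -0.37 to -0.20. Bag2 (ENSMUSG00000042215) lies on chromosome 1 from 33745484 to 33757795, minus strand, and Gm37905, on the other strand across 4.28% of its exon bases, reached at most 0.152 CPM in ADCY3∆AT and 0.0564 CPM in wild type.

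Levels of different genes were compared per length, as RPKM (CPM per kilobase of annotated exons). Bag1 was the most abundant, at 176 ± 10.5 RPKM in ADCY3∆AT and 165 ± 6.09 RPKM in wild type (SD, n = 3 each). In ADCY3∆AT, Bag3 (48.2 ± 19.7 RPKM), Hsbp1 (47.7 ± 0.822 RPKM) and Bag6 (29.5 ± 1.44 RPKM) followed. In wild type the order was Hsbp1 (47.6 ± 4.77 RPKM), Bag6 (27.7 ± 1.15 RPKM) and Bag3 (16.2 ± 0.848 RPKM). Bag3 thus overlapped Hsbp1 in ADCY3∆AT, between 26.7 and 65.3 RPKM, and lay below Bag6 in each wild-type library. In ADCY3∆AT, Bag3 also overlapped Bag6, and in replicate 1 it was the lower of the pair (26.7 against 31.1 RPKM).

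Bag5 came next in both genotypes, at 9.50 ± 0.354 RPKM in ADCY3∆AT and 8.97 ± 0.268 RPKM in wild type. Bag4, Hsf1, Hsf4 and Bag2 lay between 2.58 and 4.21 RPKM on average in ADCY3∆AT and between 2.97 and 3.95 RPKM in wild type. Of these 4, Hsf4 and Bag2 overlapped in ADCY3∆AT, and in wild type each overlapped its neighbour in the order (Bag4, Bag2, Hsf1, Hsf4). Hsf2 was lowest, at 0.726 ± 0.0122 RPKM in ADCY3∆AT and 0.697 ± 0.0153 RPKM in wild type. With the longest transcript as the length, Hsf1 rose to 8.67 RPKM in ADCY3∆AT and 6.98 RPKM in wild type and Hsbp1 to 73.4 RPKM in ADCY3∆AT and 73.3 RPKM in wild type, so that Hsbp1 was above Bag3 in both genotypes. Bag1 stayed highest and Hsf2 lowest with that length, and Bag3 (48.2 RPKM) and Bag6 (47.6 RPKM) overlapped in ADCY3∆AT.

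**Figure D3:**
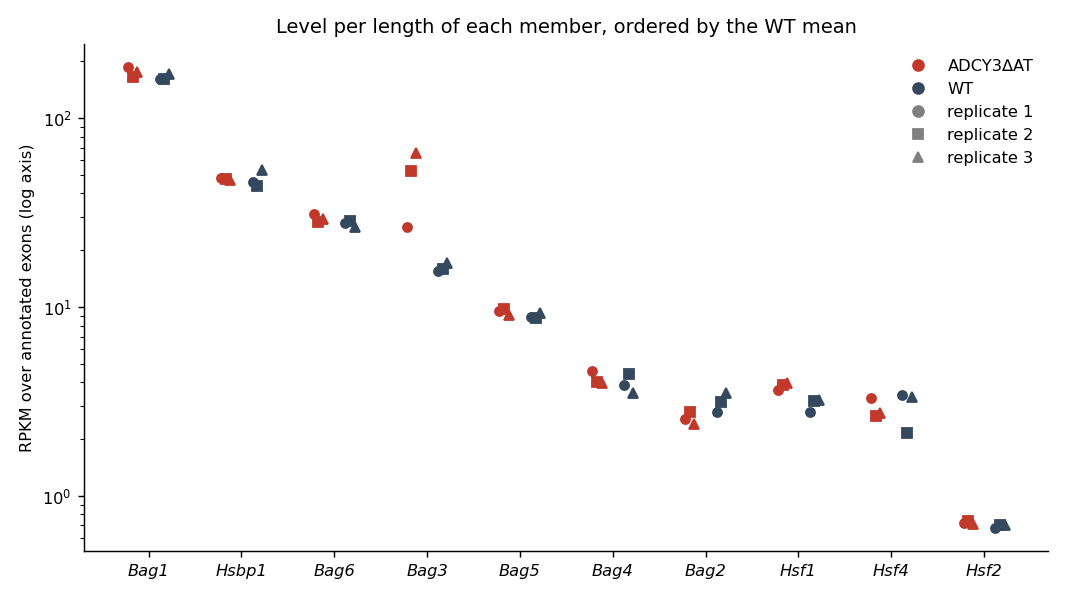
RPKM of each gene on a log axis in the 3 ADCY3∆AT libraries (red, left of each pair) and the 3 wild-type libraries (dark), ordered by the wild-type mean, with symbols for the replicate. Bag1 is highest and Hsf2 lowest in both genotypes, and Bag3 is between 26.7 and 65.3 RPKM in ADCY3∆AT.

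Bag3 made up a larger share of the BAG RNA in ADCY3∆AT. Of the summed RPKM of the 6 BAG genes, it took 10.2%, 20.0% and 22.8% in the ADCY3∆AT libraries and 7.04%, 7.18% and 7.40% in the wild-type libraries. The difference was 10.5 percentage points (17.7 ± 6.61% in ADCY3∆AT and 7.21 ± 0.181% in wild type, SD, n = 3 each, exact permutation p = 0.1, two-sided, the smallest possible). Without ADCY3∆AT replicate 1 it was 14.2 points, and without ADCY3∆AT replicate 3 it was 7.88 points. The summed level of the 6 genes was 270.2 ± 13.7 RPKM in ADCY3∆AT and 225 ± 6.13 RPKM in wild type (exact permutation p = 0.1). Bag3 is part of this sum (48.2 RPKM in ADCY3∆AT and 16.2 RPKM in wild type). The share and the sum are therefore not results apart from the Bag3 difference. The 5 BAG genes other than Bag3 had log2 fold changes between -0.29 and 0.10.

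The genes that heat shock factors are known to induce rose in large number. Of the 30 heat shock response targets, all tested, 21 rose (70%) and 0 fell, beside 4.30% of all tested genes called in either direction. The median log2 fold change was 1.07, beside -0.0067 over all tested genes. Of the other 9, which were not called, 8 had a positive value. An unadjusted p under 0.05 in edgeR was reached by 28 of 30, beside 22.6% of all tested genes. Mrpl18 was among the 28 and went the other way (log2 fold change -0.25, edgeR adjusted p = 0.0841). Each of its ADCY3∆AT libraries lay below each wild-type library. This list and the lists below were written with results of these data known. Their counts and percentages are therefore not independent evidence of a direction or of an excess over all tested genes. The 21 calls became 9 without wild-type replicate 1, 10 without wild-type replicate 2 and 11 without ADCY3∆AT replicate 2.

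Hsph1, an HSP110 protein that exchanges nucleotide on HSP70 as typical BAG proteins do, had 150.1, 325 and 424 CPM in ADCY3∆AT and 20.0, 16.0 and 22.3 CPM in wild type. Its log2 fold change was 3.94 (SE 0.36, edgeR adjusted p = 0.00235). Hspa4l, another HSP110 relative, rose 3.99-fold (72.0 ± 18.0 CPM in ADCY3∆AT and 18.1 ± 1.76 CPM in wild type, edgeR adjusted p = 0.00235). Stip1, the adaptor that joins HSP70 to HSP90, rose 3.57-fold (155 ± 39.3 CPM in ADCY3∆AT and 43.3 ± 4.10 CPM in wild type, edgeR adjusted p = 0.00311). These 3 genes kept their call in all 16 alternatives, and each ADCY3∆AT library lay above each wild-type library. Hspb8, the small heat shock protein that works with BAG3, also rose (79.8 ± 9.35 CPM in ADCY3∆AT and 48.3 ± 10.2 CPM in wild type, log2 0.72, edgeR adjusted p = 0.0369), and was named after its value was seen because of that partnership. Its call ended with upper-quartile factors (0.0509) and without wild-type replicate 1 (0.138) or 2 (0.0926) or ADCY3∆AT replicate 2 (0.0972) or 3 (0.0956).

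**Figure D4:**
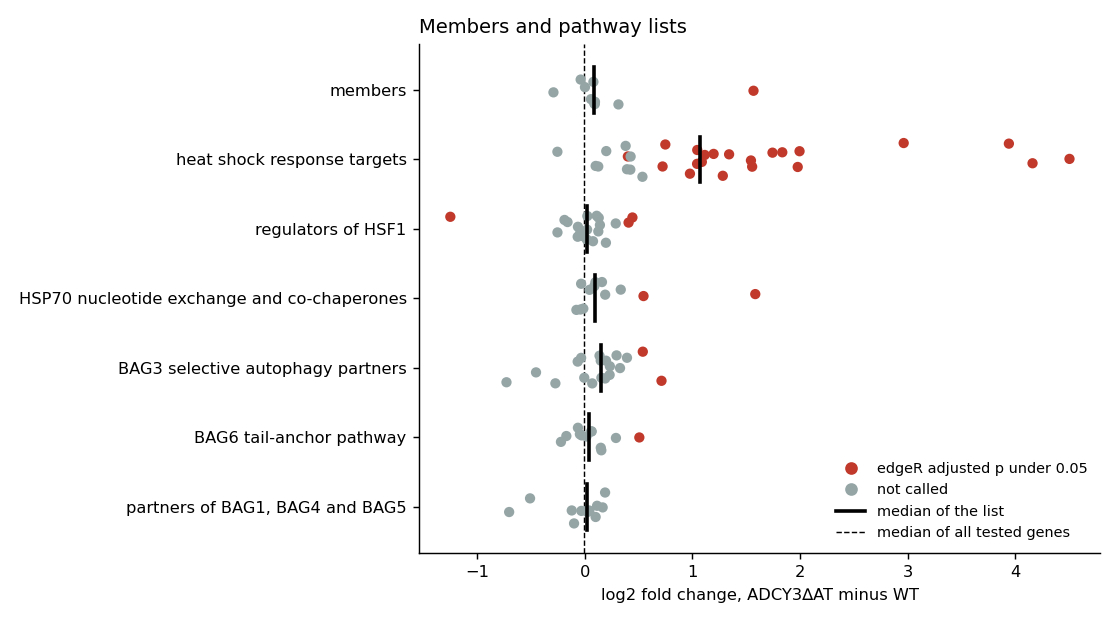
Log2 fold change, ADCY3∆AT minus wild type (horizontal axis), of each tested gene of the 10 members and of 6 pathway lists, with called genes in red, uncalled genes in grey, the median of each list as a bar and the median of all tested genes as a dashed line. The heat shock response targets have a median of 1.07 and 21 called genes, and the other lists have medians from 0.02 to 0.16.

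The ADCY3∆AT library with the lowest Bag3 was also the lowest for most of the heat shock targets that rose. ADCY3∆AT replicate 1 was the lowest of its genotype for 20 of the 21 called targets, as it was for Bag3 and Hsf1. Over all 377 genes called higher it was the lowest for 32.9%, and over all tested genes for 35.8%. The 5 genes other than the 10 members whose log2(CPM + 0.5) followed Bag3 most closely over the 6 libraries were Trmt1l, Ahsa2, Dedd2, Tmem33 and Hspa1b, with Pearson correlations of 0.997 to 0.993. All 5 were called higher, with log2 fold changes from 0.63 (Trmt1l) to 4.51 (Hspa1b). Each of these 5 calls ended without any 1 wild-type library and without ADCY3∆AT replicate 2. Of the 6 fits without 1 library, Trmt1l, Dedd2 and Tmem33 kept their call in 1, and Ahsa2 and Hspa1b in 2. Of the 10 other fits, Dedd2 and Hspa1b were called in 8, with adjusted p up to 0.0898 (Dedd2) and 0.115 (Hspa1b). Ahsa2, an HSP90 cochaperone, and Dedd2 are among the listed targets, as is Hspa1b, an inducible HSP70 gene whose reads may be shared with its near-identical copy Hspa1a. For Hsf1 the 5 genes were Gm48768, Rab5b, Lamc1, Pcbp4 and Mn1, with correlations of 0.998 to 0.995, and 0 of them were called (edgeR adjusted p from 0.0591 to 0.385). Gm48768 was called by DESeq2 (0.0353), with GC and length offsets (0.0491) and with no filter (0.00581), where 1951 genes were called. With 6 libraries these are descriptions, and the genotype difference is part of each.

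**Figure D5:**
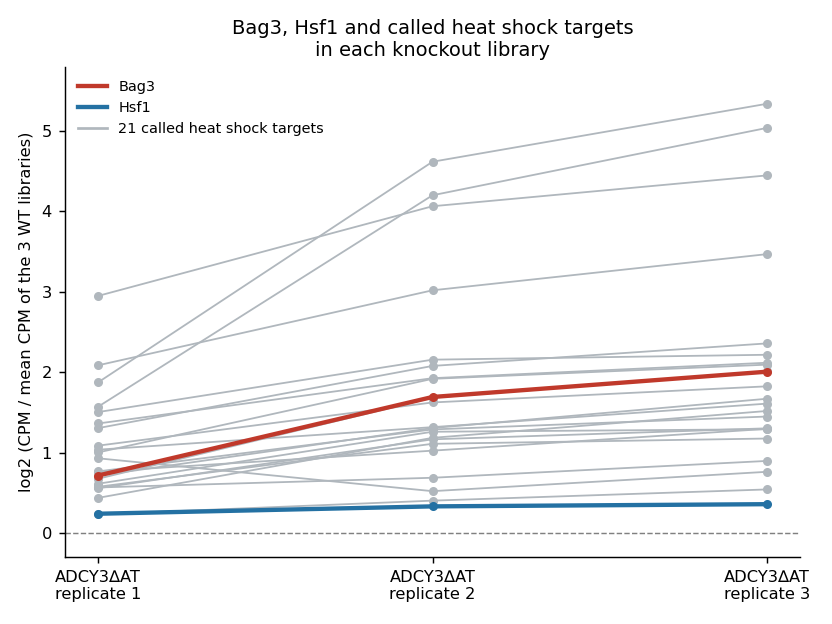
Log2 ratio of the CPM in each ADCY3∆AT library to the mean of the 3 wild-type libraries (vertical axis) for Bag3 (red), Hsf1 (blue) and the 21 called heat shock targets (grey), with lines that join the values of 1 gene and no order among replicates. ADCY3∆AT replicate 1 is the lowest library for Bag3, for Hsf1 and for 20 of the 21 targets.

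Of 20 tested genes that act on HSF1, 2 rose, 1 fell and 17 were not called. That is 15% called, beside 4.30% of all tested genes, and a median log2 fold change of 0.02. Sirt1, a deacetylase that keeps HSF1 on DNA, rose 1.36-fold (18.6 ± 0.917 CPM in ADCY3∆AT and 13.7 ± 0.993 CPM in wild type, edgeR adjusted p = 0.0392). Crebbp, an acetyltransferase and relative of Ep300, rose 1.33-fold (50.9 ± 2.83 CPM in ADCY3∆AT and 38.4 ± 3.40 CPM in wild type, edgeR adjusted p = 0.0422). Ier2, an immediate early gene, fell to 15.3 ± 1.46 CPM in ADCY3∆AT, against 36.4 ± 7.59 CPM in wild type (log2 fold change -1.25, adjusted p = 0.00614 by edgeR). None of the 16 alternatives ended that call. The call of Sirt1 ended without any 1 library (adjusted p from 0.0581 to 0.147). That of Crebbp ended with upper-quartile factors (0.0524) and without any 1 library other than ADCY3∆AT replicate 1 (0.0570 to 0.143).

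Of 12 tested HSP70 nucleotide exchange factors and cochaperones, 2 rose and 0 fell. That is 16.7% called, beside 4.30% of all tested genes, with a median log2 fold change of 0.09. St13, which steadies HSP70 in its ADP-bound state, rose 1.46-fold (182 ± 13.2 CPM in ADCY3∆AT and 124 ± 10.3 CPM in wild type, edgeR adjusted p = 0.0144). Dnaja4, a J-domain cochaperone, rose 3.00-fold (59.3 ± 28.4 CPM in ADCY3∆AT and 19.8 ± 0.823 CPM in wild type, edgeR adjusted p = 0.0327). The call of St13 ended without wild-type replicate 1 (0.0789) or 2 (0.0511), and that of Dnaja4 without any 1 wild-type library (0.0872 to 0.122), without ADCY3∆AT replicate 2 (0.0865), with limma-voom (0.0638) and with robust quasi-likelihood (0.108). Stub1, which encodes CHIP, differed by -0.03 on the log2 scale (adjusted p = 0.822 by edgeR) and was named after its value was seen, as the ligase that BAG2 inhibits and BAG3 works with.

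Of 19 tested partners of BAG3 in selective autophagy, 2 rose and 0 fell (10.5% called, beside 4.30% of all tested genes, median log2 fold change 0.16). Gabarapl1, an autophagosome protein, rose 1.64-fold (236, 190.0 and 229 CPM in ADCY3∆AT and 139.9, 126 and 133 CPM in wild type, edgeR adjusted p = 0.00775), with its call kept in all 16 alternatives. Tsc1, a brake on mTORC1, rose 1.45-fold (22.6 ± 1.22 CPM in ADCY3∆AT and 15.5 ± 0.579 CPM in wild type, edgeR adjusted p = 0.0144), a call that ended without wild-type replicate 1 (0.0773) or ADCY3∆AT replicate 2 (0.0611). Of 12 tested genes of the BAG6 pathway for tail-anchored proteins, 1 rose and 0 fell (8.33% called, beside 4.30% of all tested genes, median log2 fold change 0.04). That gene was Ubqln1, a ubiquitin-binding shuttle, which rose 1.42-fold (162 ± 6.97 CPM in ADCY3∆AT and 114 ± 8.27 CPM in wild type, edgeR adjusted p = 0.0126) and lost its call without wild-type replicate 1 (0.0593).

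Of 12 tested partners of BAG1, BAG4 and BAG5, edgeR called 0, as did DESeq2 and limma-voom. In the edgeR fit 0 reached an unadjusted p under 0.05. The smallest p-values were those of Lrrk2, a kinase linked to Parkinson disease (1.33 ± 0.657 CPM in ADCY3∆AT and 2.20 ± 0.362 CPM in wild type, log2 fold change -0.70, edgeR adjusted p = 0.307), and of Gak, a kinase of clathrin uncoating (76.8 ± 2.79 CPM in ADCY3∆AT and 68.5 ± 7.83 CPM in wild type, log2 0.17, adjusted p = 0.326).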

How the data were processed

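The authors deposited a table of estimated counts per gene, 1 column per library, in which 38% of the values above 0 are whole (within 5e-04). The GRCm38 build and the tools StringTie, Salmon and edgeR are named per the submitters' processing notes, without versions or roles, and the sources used here do not give whether counting used strand. Columns were matched to samples by the numbers in the samples' descriptions, and symbols, positions and lengths came from GENCODE M21. Counts were rounded, filtered with filterByExpr (genotype as group, at least 10 counts, total at least 15), TMM-scaled and tested in edgeR 4.0.16 (R 4.3.3) by quasi-likelihood, on all 6 libraries without covariates. The script was tested on simulated data. Single values had an exact permutation test. Alternatives were other scalings, DESeq2 1.42.0, limma-voom (limma 3.58.1), robust quasi-likelihood, other filters, a replicate block, GC and length offsets, and leaving out each library. Within a genotype, libraries differed beyond sampling noise, with a chi-square per gene of 6.34 to 26.6, and none was treated as a duplicate. The limit set for a count of 0 was 3 counts, which covers counting error alone.

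The members and lists were chosen with earlier results of these data known. The genes named are the 10 members, up to 3 called genes with the smallest p in each list (where there was no call, the 2 genes lowest in p), the 5 genes most like Bag3 and Hsf1, and genes that overlap a member, besides those said to be named after their values or matches were seen. Of the 16 names listed for the BAG6 pathway, 13 matched a row.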

Additional observations from a re-analysis of the deposited data

How the results depend on the processing

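Besides leaving out libraries, 10 other fits were made. Bag3 was the 1 gene of the 10 called higher in each of these except robust quasi-likelihood (0 called). With an adjusted p under 0.10 there were 2, Bag3 and Hsf1. Without 1 library the number was 0 to 1. The number called lower was 0 in each. The count over all tested genes, 616 (377 higher and 239 lower, or 282 higher and 274 lower with upper-quartile factors), was 993 with DESeq2, 1951 with no filter on low counts, 1375 at an adjusted p under 0.10 and 162 to 461 without 1 library. With a replicate block it was 324 and Bag3 was still called, while the calls of Sirt1 (adjusted p = 0.0843) and Crebbp (0.0741) ended. Deviations of libraries of the same number had correlations of 0.0117, -0.0214 and -0.0516, and those of other pairs ran from -0.0539 to 0.0807. With 3 libraries per genotype, these values cannot tell whether the numbers pair libraries. The sign turned for Hsf4 with GC and length offsets (0.0690, and -0.22 to 0.0740 without 1 library) and for Hsbp1 with upper-quartile factors (-0.0373) and the CPM filter (-0.0008), and it ran from -0.0508 to 0.0864 without 1 library. The causes were not tested. Fits without 1 library have fewer samples. Depth limits Hsf4, Hsf2 and Bag2 most, which had the fewest counts. The difference of Stub1 turned to 0.0400 with GC and length offsets. DESeq2 called 25 heat shock targets higher and limma-voom 17. With no filter, 5 partners of BAG3 were called higher and 1 lower.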
